A study of Homo sapiens with 36 samples.

Results

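The heat shock and chaperone genes considered here were HSP90AA1, HSP90AB1, HSP90B1, HSPA4, HSPA5, HSPA8, HSPA9, HSPD1, HSPH1 and HSPA1B, which encode the main HSP90, HSP70, HSP110 and HSP60 proteins of human cells. A PAR-CLIP cluster, a short stretch of RNA called from reads with T-to-C conversions, was counted for a gene if its midpoint lay on the strand and within the body of that gene in GENCODE 44 (GRCh38). This gave 919 clusters of 278185 in 18 lists, on 10 of 12711 genes with a cluster. The cells were HEK293 Flp-In T-REx, a human embryonic kidney line. FLAG-SCAF4 cells and FLAG-SCAF8 cells expressed the tagged protein after overnight induction with 100 ng/mL doxycycline, as stated in the labels, and the parental line carried no tag and was given no doxycycline there. The study's methods differ from the labels in both respects, with a higher dose that parental cells received too. All cells received 100 μM 4-thiouridine (4SU) overnight and 500 μM for another 2 h, and were irradiated at 365 nm with 2000 J/m2. FLAG IPs of the 3 lines (SCAF4 IP, SCAF8 IP and control IP) and the inputs of the same extracts (SCAF4 input, SCAF8 input and parental input) were made in 3 replicates each. Libraries of the soluble and chromatin fractions were combined by the authors before clusters were called. The study calls the replicates biological without saying how they were kept apart, and p-values measure only the spread between these lists.

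Chaperones help other proteins to fold and keep them from aggregating. HSP70 proteins bind short hydrophobic stretches of a client in a cycle driven by ATP, HSP110 proteins release the nucleotide from HSP70, and HSP90 proteins act later on clients that are nearly folded. HSP60 forms the folding chamber of mitochondria. SCAF4 and SCAF8 bind the phosphorylated C-terminal domain of RNA polymerase II and hold an RNA recognition motif. The comparison of IP with input asks which RNAs were taken down with them, and the comparison with control IP asks what the beads and the antibody bring down without a tagged protein.

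The lists differed in length, with 18287 to 54404 clusters in SCAF4 IP and SCAF8 IP, 1621 to 9638 in control IP and 4567 to 12493 in the inputs. No reads are given in them, the depth of sequencing is therefore unknown, and only the length of a list stands for it. Replicate 1 was sequenced with longer reads than replicates 2 and 3. As a check of the labels, the gene SCAF4 held 16 to 17 clusters in each SCAF4 input and 1 to 7 in each other input, and SCAF8 held 18 to 20 in each SCAF8 input and 1 to 10 in each other input.

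HSP90AA1, HSP90AB1 and HSPA8 were the genes with the most clusters over the 18 lists, and HSPH1 had the fewest. The 10 genes together held 60 to 107 clusters in each SCAF4 or SCAF8 IP list, 22 to 52 in each input and 11 to 46 in each control IP list. As a share of the list, these were 0.197% to 0.395% in SCAF4 and SCAF8 IP, 0.360% to 0.730% in the inputs and 0.477% to 1.17% in control IP. The exact binomial 95% interval ran from 0.161% to 0.238% for the lowest of these shares (SCAF4 IP replicate 2) and from 0.770% to 1.69% for the highest (control IP replicate 2), and covers counting error only. The raw number was thus higher in every SCAF4 and SCAF8 IP list than in any input or control IP list, while the share was lower in all but 1 of them (SCAF4 IP replicate 1, at 0.395%, lay above parental input replicate 1, at 0.360%). Raw numbers are given below for each gene. Until shares are taken up, statements that lists lay above others or overlapped are about raw numbers. The share of all genes whose raw numbers do not overlap between these lists was not computed. Shares by list are given for HSP90AA1, HSP90AB1, HSPA1B and HSPA9. For the other tested genes, log2 differences in share are given for SCAF4 IP against its input. The part of list length in raw number or share was not tested.

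**Figure D1:**
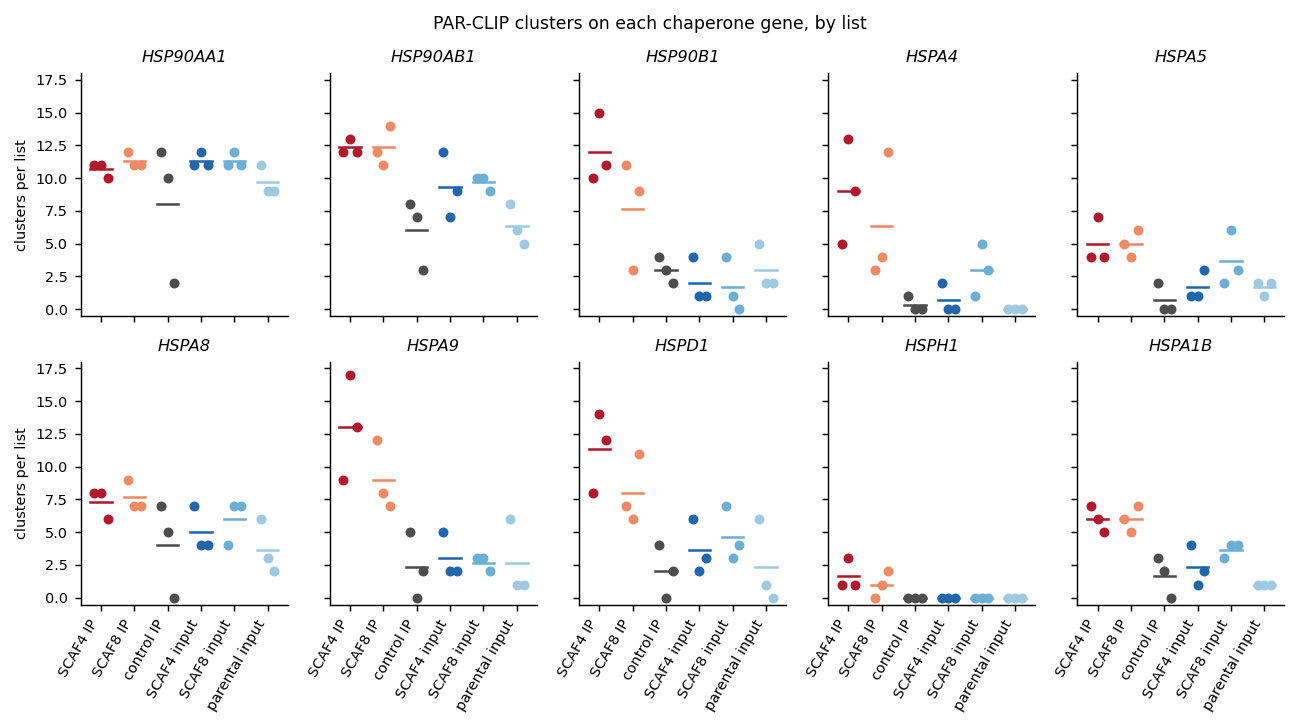
Number of PAR-CLIP clusters (y axis) on each of the 10 chaperone genes in each of the 18 lists (points), with the mean of the 3 lists of a group as a short line. HSP90AA1 held 9 to 12 clusters in 17 of the 18 lists, whereas HSPA4 held 3 to 13 in the SCAF4 and SCAF8 IP lists and at most 5 in any other, and HSPH1 had none outside SCAF4 and SCAF8 IP.

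The cytosolic HSP90 genes had clusters in all 18 lists, and HSP90AA1 had nearly the same number in all but 1 of them. HSP90AA1 (chr14:102080742-102139699, minus strand), the inducible form, held 11, 11 and 10 clusters in SCAF4 IP and 12, 11 and 11 in SCAF8 IP. Its inputs held 11, 12 and 11 in FLAG-SCAF4 cells, 11, 12 and 11 in FLAG-SCAF8 cells and 11, 9 and 9 in parental cells. Control IP held 12, 10 and 2, and the last of these lists was the shortest of all. The groups overlapped throughout. HSP90AB1 (chr6:44246166-44253888, plus strand), the constitutive form, held 12, 13 and 12 clusters in SCAF4 IP and 12, 11 and 14 in SCAF8 IP. In the same order of lines its inputs held 12, 7 and 9, then 10, 10 and 9, then 8, 6 and 5, and control IP held 8, 7 and 3. The IP lists were at or near the top, with SCAF4 input replicate 1 among them. The means were 12.3 ± 0.577 in SCAF4 IP and 12.3 ± 1.53 in SCAF8 IP, against 6.33 ± 1.53 in parental input and 6.00 ± 2.65 in control IP (SD, n = 3).

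HSP90B1 (chr12:103930107-103953931, plus strand), the HSP90 of the endoplasmic reticulum also called GRP94, had fewer clusters in the inputs than the cytosolic pair. It held 10, 15 and 11 clusters in SCAF4 IP and 11, 3 and 9 in SCAF8 IP. The inputs held 4, 1 and 1, then 4, 1 and 0, then 5, 2 and 2, and control IP held 4, 3 and 2. The SCAF4 IP lists lay above all inputs and control IP lists, and the SCAF8 IP lists did so in replicates 1 and 3. Near its end lies the stretch of coding sequence that was in 5 SCAF4 and SCAF8 IP lists, no input and 1 control IP list (chr12:103947311-103947414, plus strand, exon 17 of 18). It is 1 of the 5 longest of the stretches chosen for the 10 genes by the rule given at the end. Capitals in the coding stretches mark the letters CGG or CGA, the letters CAG with C or G on both sides, and the letters CTCC or CACC, which are described further on.
HSP90B1 exon 17: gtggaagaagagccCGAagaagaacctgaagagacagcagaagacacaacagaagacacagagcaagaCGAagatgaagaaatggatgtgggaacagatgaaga

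HSPA8 (chr11:123057489-123063230, minus strand), the constitutive HSP70 of the cytosol, held 8, 8 and 6 clusters in SCAF4 IP and 9, 7 and 7 in SCAF8 IP. Its inputs held 7, 4 and 4, then 4, 7 and 7, then 6, 3 and 2, and control IP held 7, 5 and 0. The groups overlapped. None of the 3 SNORD14 genes in its introns was overlapped by a cluster of any list.

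HSPA1B (chr6:31827738-31830254, plus strand), a stress-inducible HSP70 without introns, held 7, 6 and 5 clusters in SCAF4 IP and 6, 5 and 7 in SCAF8 IP. The inputs held 4, 1 and 2, then 3, 4 and 4, then 1, 1 and 1, and control IP held 3, 2 and 0. Every SCAF4 and SCAF8 IP list was above every input and control IP list. The coding sequences of HSPA1B and HSPA1A differ at 4 of 1923 positions, and reads that matched both were placed at 1 position by the authors' alignment, so the split between the pair is uncertain. HSPA1A held 3, 4 and 5 clusters in SCAF4 IP, 3, 2 and 4 in SCAF8 IP and 0 to 3 in the other lists. The stretch of HSPA1B that was in all 6 SCAF4 and SCAF8 IP lists and in no input or control IP list (chr6:31828118-31828283, plus strand, in the only exon, early in the coding sequence) was the longest of this kind among the stretches chosen for the 10 genes. It is 166 nt long, holds 14.5% T, and is present unchanged in HSPA1A.
HSPA1B coding sequence: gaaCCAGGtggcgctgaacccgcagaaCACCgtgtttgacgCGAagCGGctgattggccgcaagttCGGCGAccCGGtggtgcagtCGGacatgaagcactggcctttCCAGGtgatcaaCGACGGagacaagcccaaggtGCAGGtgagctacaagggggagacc

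The HSP110 genes, which encode nucleotide exchange factors of HSP70, were those with few clusters outside SCAF4 and SCAF8 IP. HSPA4 (chr5:133052013-133106449, plus strand) held 5, 13 and 9 clusters in SCAF4 IP and 3, 4 and 12 in SCAF8 IP. SCAF4 input held 2, 0 and 0, SCAF8 input 1, 5 and 3, and parental input and control IP together 1 cluster in 6 lists. SCAF4 IP was above all inputs except that its replicate 1 equalled SCAF8 input replicate 2, whereas SCAF8 IP overlapped its own input. HSPH1 (chr13:31134973-31162388, minus strand) held 1, 3 and 1 clusters in SCAF4 IP and 0, 1 and 2 in SCAF8 IP. It held none in the 9 inputs or in control IP, and with 8 clusters in all it fell below the limit of 10 for a test. The coding stretches covered most often in SCAF4 and SCAF8 IP and not elsewhere are also among the 5 longest, and set both mRNAs beside HSPA1B. That of HSPA4 (chr5:133088440-133088546, plus strand, exon 9 of 19) was in 4 IP lists, and that of HSPH1 (chr13:31137419-31137492, minus strand, in its last exon, 18 of 18) in 3, with none in an input or control IP list. They hold 42.1% and 36.5% G and C, against 61.4% in the stretch of HSPA1B.
HSPA4 exon 9: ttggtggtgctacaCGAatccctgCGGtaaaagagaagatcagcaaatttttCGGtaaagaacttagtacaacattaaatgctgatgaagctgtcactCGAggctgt
HSPH1 exon 18: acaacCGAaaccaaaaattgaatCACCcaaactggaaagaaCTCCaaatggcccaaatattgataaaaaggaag

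The remaining genes encode chaperones of organelles. HSPA5 (chr9:125234853-125241382, minus strand), the HSP70 of the endoplasmic reticulum known as BiP, held 4, 7 and 4 clusters in SCAF4 IP and 5, 4 and 6 in SCAF8 IP. Its inputs held 1, 1 and 3, then 2, 6 and 3, then 2, 1 and 2, and control IP held 2, 0 and 0. SCAF4 IP lay above its own input in every list, and SCAF8 IP overlapped its own. One stretch of its coding sequence was in all 6 SCAF4 and SCAF8 IP lists, in 1 input and in no control IP list (chr9:125238737-125238820, minus strand, exon 6 of 8). It is also among the 5 longest, and holds 34.5% T and a lone CGG, unlike that of HSPA1B.
HSPA5 exon 6: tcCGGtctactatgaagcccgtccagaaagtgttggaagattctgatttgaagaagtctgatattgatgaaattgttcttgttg

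HSPA9 (chr5:138553756-138575675, minus strand), the mitochondrial HSP70 also called mortalin, held 9, 17 and 13 clusters in SCAF4 IP and 12, 8 and 7 in SCAF8 IP. The inputs held 5, 2 and 2, then 3, 3 and 2, then 6, 1 and 1, and control IP held 5, 0 and 2. HSPD1 (chr2:197486584-197516737, minus strand), which encodes HSP60, held 8, 14 and 12 clusters in SCAF4 IP and 7, 6 and 11 in SCAF8 IP. Its inputs held 6, 2 and 3, then 7, 3 and 4, then 6, 1 and 0, and control IP held 4, 0 and 2. In HSPA9 all SCAF4 and SCAF8 IP lists lay above all others in raw number, and in HSPD1 those of SCAF8 IP met the highest inputs at 6 and 7. Per 10000 clusters of the list, the groups overlapped in HSPA9. SCAF4 IP held 4.74, 3.12 and 3.83 and its input 4.27, 3.91 and 4.17. SCAF8 IP held 4.76, 4.37 and 1.69 and its input 3.28, 2.90 and 2.22. Parental input held 4.80, 2.19 and 1.97, and control IP 5.19, 0 and 12.3. Few clusters of these lists lay on small RNA genes inside the members. SNORD63 and SNORD63B in introns of HSPA9 were overlapped in 2 and 1 SCAF4 and SCAF8 IP lists and in no other, and MIR3652 at the start of HSP90B1 in 3 and in 1 control IP list.

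As a share of the list, the cytosolic HSP90 genes were lower in SCAF4 IP than in its input. HSP90AA1 made up 5.79, 2.02 and 2.94 of every 10000 clusters in SCAF4 IP and 9.39, 23.5 and 23.0 in SCAF4 input, a log2 difference of −2.00 ± 0.48 (SE, n = 3 lists each, limma across all genes, adjusted p = 0.00903). HSP90AB1 made up 6.32, 2.39 and 3.53 against 10.2, 13.7 and 18.8, a log2 difference of −1.56 ± 0.45 (SE, limma, adjusted p = 0.0232). The groups did not overlap in either gene. Of the 9 chaperone genes that could be tested, 2 were thus lower and none was higher, where 1.54% of the 6114 genes tested were lower and 12.3% higher. The median log2 difference was −0.43 over the 9 genes and 0.31 over all genes tested. The other genes gave −1.26 in HSPA8, −0.45 in HSPA1B, −0.43 in HSPD1 and in HSPA5, −0.07 in HSPA9 and 0.41 in HSP90B1. HSPA4 gave 1.17, with 2 clusters in its input. In SCAF8 IP against its input none of the 9 passed the test, where 2.04% of all genes were higher and 0.0491% lower. HSP90AA1 gave −1.24 ± 0.48 there (SE, limma, adjusted p = 0.188) and HSP90AB1 −0.96 ± 0.45 (SE, limma, adjusted p = 0.284). The median log2 difference was −0.54 over the 9 genes and 0.15 over all.

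**Figure D2:**
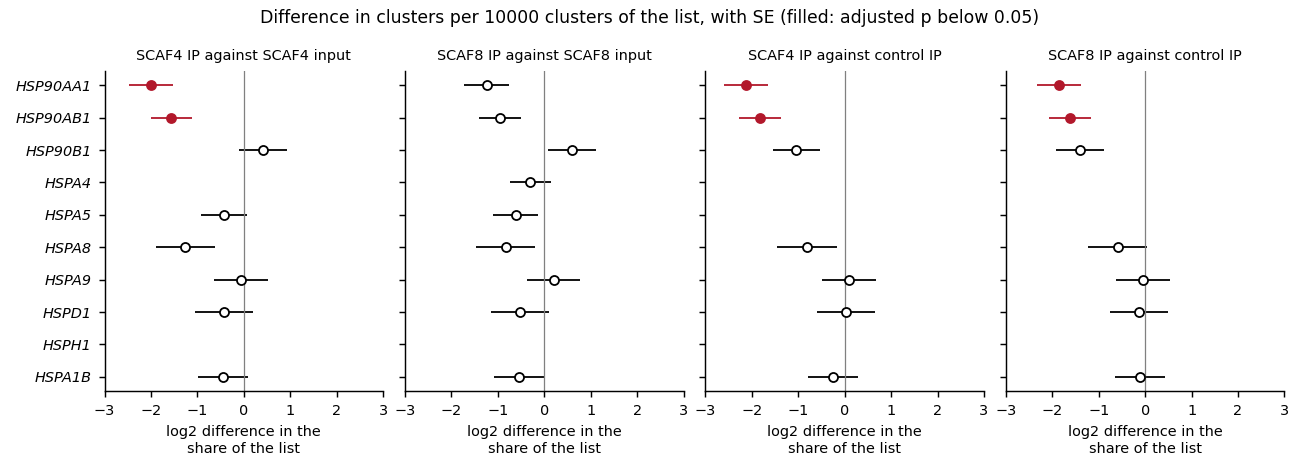
Log2 difference in clusters per 10000 clusters of the list (x axis) with its SE for each gene in 4 comparisons of 3 lists with 3; filled points passed the test at an adjusted p below 0.05 (limma). Points are left out where a group held 3 clusters or fewer (HSPA4, HSPA5), and HSPH1 was not tested. HSP90AA1 and HSP90AB1 lay between −2.13 and −1.56 in 3 of the comparisons and were the only filled points.

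The direction of these differences was that of the share and not of the number. With numbers not scaled to the length of the list, HSP90AA1 differed by −0.07 ± 0.35 (SE) and HSP90AB1 by 0.36 ± 0.27 (SE) on the log2 scale between SCAF4 IP and its input, and neither passed the test. Unscaled, 6 of the 9 genes were higher in SCAF4 IP than in its input and none was lower, where 64.4% of all genes were higher. In SCAF8 IP against its input 1 of 9 was higher, where 25.7% of all genes were. The calls of HSP90AA1 and HSP90AB1 in SCAF4 IP against its input were lost without replicate 2 and without replicate 3, which left 0 of the 9 genes called, and remained without replicate 1. The log2 differences were −1.55 and −1.74 in HSP90AA1 without replicates 2 and 3, and −1.33 and −1.31 in HSP90AB1, and the same fits called 0 and 3 of all 6114 genes.

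Against control IP, the lists of which also served both comparisons, the result for HSP90 was alike in direction. HSP90AA1 made up 12.5, 43.2 and 12.3 of every 10000 clusters in control IP, and its log2 difference was −2.13 ± 0.48 in SCAF4 IP (SE, limma, adjusted p = 0.00559) and −1.86 ± 0.48 in SCAF8 IP (SE, limma, adjusted p = 0.0229). HSP90AB1 made up 8.30, 30.3 and 18.5 in control IP, with −1.82 ± 0.45 in SCAF4 IP (SE, limma, adjusted p = 0.00822) and −1.62 ± 0.45 in SCAF8 IP (SE, limma, adjusted p = 0.0285). Every list of SCAF4 and SCAF8 IP was below every control IP list in both genes. HSPA4 was higher in SCAF4 IP than in control IP (limma, adjusted p = 0.0361), with 27 clusters in 107357 against 1 in 13573. This is a ratio of shares of 3.41, with a counting interval of 0.563 to 139.8 that includes equal shares. The call of HSPA4 was lost with voom weights (log2 difference 0.37, adjusted p = 0.655) and with the lower-scoring clusters left out (0.85, adjusted p = 0.237). The voom fit also took its own log values, without the prior scaled to list length. In SCAF8 IP its 19 clusters in 84978 gave a ratio of 3.03 with an interval of 0.482 to 126.1, and it did not pass the test (limma, adjusted p = 0.100). In all, 1 of the 9 genes was higher and 2 were lower in SCAF4 IP, where 17.5% of all genes were higher and 4.86% lower. In SCAF8 IP none was higher and 2 were lower, where 8.47% of all genes were higher and 3.93% lower. Unscaled, 7 of 9 were higher in SCAF4 IP and 6 of 9 in SCAF8 IP, and none was lower, where 77.5% and 57.5% of all genes were higher. Without replicate 2 and without replicate 3 none of the 9 genes was called in either comparison, and of all 6114 genes 0 were called without replicate 2 and 3 (SCAF4 IP) and 0 (SCAF8 IP) without replicate 3. HSP90AA1 differed by −1.32 and −1.48 in SCAF4 IP and SCAF8 IP without replicate 2, and by −2.35 and −1.89 without replicate 3.

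SCAF4 IP and SCAF8 IP did not differ detectably in any of the 9 genes (limma, smallest unadjusted p = 0.488), where 0.425% of all genes were higher and 0.0818% lower in SCAF4 IP. The log2 differences ran from −0.27 in HSP90AA1 to 0.36 in HSP90B1 with SE between 0.44 and 0.64, which does not show that the IPs were alike. The difference between the IP-to-input differences of SCAF4 and SCAF8 was largest in HSPA4, at 1.47 ± 0.62 on the log2 scale (SE, limma, adjusted p = 0.918), and its SCAF4 input rests on 2 clusters. Both lie in replicate 1. Control IP against parental input gave no call among the 9 genes either (limma, lowest unadjusted p = 0.0372, in HSPA5), where 0.180% of all genes were higher and 0.409% lower.

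The part of the mRNA covered by clusters was larger in SCAF4 and SCAF8 IP than in the inputs, by amounts that differed between the genes. Over the 10 mRNAs, 41.2%, 51.3% and 41.3% of the nucleotides were covered in SCAF4 IP and 38.5%, 28.5% and 40.6% in SCAF8 IP. The inputs covered 15.7% to 27.5% in FLAG-SCAF4 cells, 22.0% to 25.5% in FLAG-SCAF8 cells and 9.77% to 22.1% in parental cells, and control IP covered 3.79% to 23.3%. Every SCAF4 and SCAF8 IP list was above every other list. Over all 9379 protein-coding genes with a cluster, 3.81% to 12.0% was covered in SCAF4 and SCAF8 IP and 0.629% to 2.78% in the inputs. The IP lists were also the longer ones, and the part of list length in this result was not tested.

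**Figure D3:**
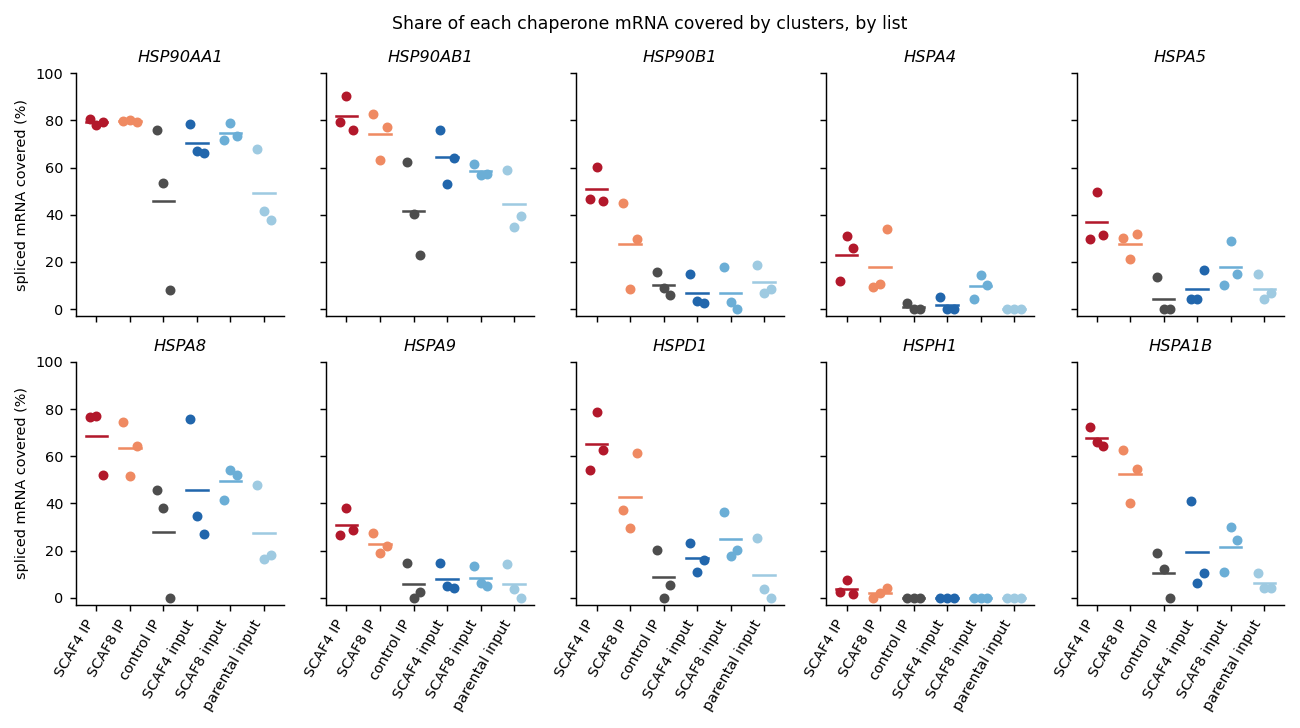
Percent of the nucleotides of each spliced mRNA that lay in a cluster (y axis) in each of the 18 lists (points), with the mean of the 3 lists of a group as a short line. HSP90AA1 was covered to 77.9% to 80.5% in all SCAF4 and SCAF8 IP lists and to 66.0% to 78.8% in the inputs of the same lines, whereas HSPA1B went from 6.24% to 41.2% in those inputs to 40.0% to 72.5% in the IPs.

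Over all lists of a kind, input clusters reached nearly as much of HSP90AA1 and HSPA8 as IP clusters did. In HSP90AA1, 81.3% of the mRNA was in a cluster of at least 1 SCAF4 or SCAF8 IP list and 80.9% in one of at least 1 input, and only 7 nt were in 4 or more of the 6 IP lists and in no input or control IP list. In HSPA8 the shares were 86.0% and 82.0%, and only 1 nt was of that kind. Single lists of HSPA8 covered less in the inputs, with 68.6% ± 14.4 in SCAF4 IP and 63.5% ± 11.5 in SCAF8 IP against 45.8% ± 26.4, 49.3% ± 6.84 and 27.4% ± 17.5 in SCAF4, SCAF8 and parental input (SD, n = 3). At least 4 of the 6 IP lists covered 71.2% of it, and at least 5 of the 9 inputs covered 39.5%. In HSPA1B the IP lists reached 90.0% of the mRNA and the inputs 61.4%, and 267 nt, or 10.6%, were covered in at least 4 IP lists and in none of the others. HSPA4 had 377 such nt, or 7.90% of its mRNA, HSPA9 had 97, HSP90B1 had 96 and HSP90AB1 had 90. HSPA5 and HSPD1 had 2 and 5. Such nt were not counted over all genes.

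HSP90B1 and HSPD1 showed the widest spread among the IP lists. HSP90B1 was covered to 46.7%, 60.4% and 46.0% in SCAF4 IP and to 45.0%, 8.42% and 29.6% in SCAF8 IP, and its inputs covered 0% to 18.8%. SCAF8 IP replicate 2, the shortest of the 6 IP lists, lay within the inputs. HSPD1 was covered to 54.3%, 78.6% and 62.6% in SCAF4 IP and to 37.3%, 29.7% and 61.2% in SCAF8 IP, against 0% to 36.4% in the inputs. HSPA9 was covered to 19.1% to 37.9% in the IPs and to 0% to 14.5% in the inputs. HSPA5 was covered to 21.3% to 49.6% in the IPs and to 4.21% to 28.8% in the inputs.

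**Figure D4:**
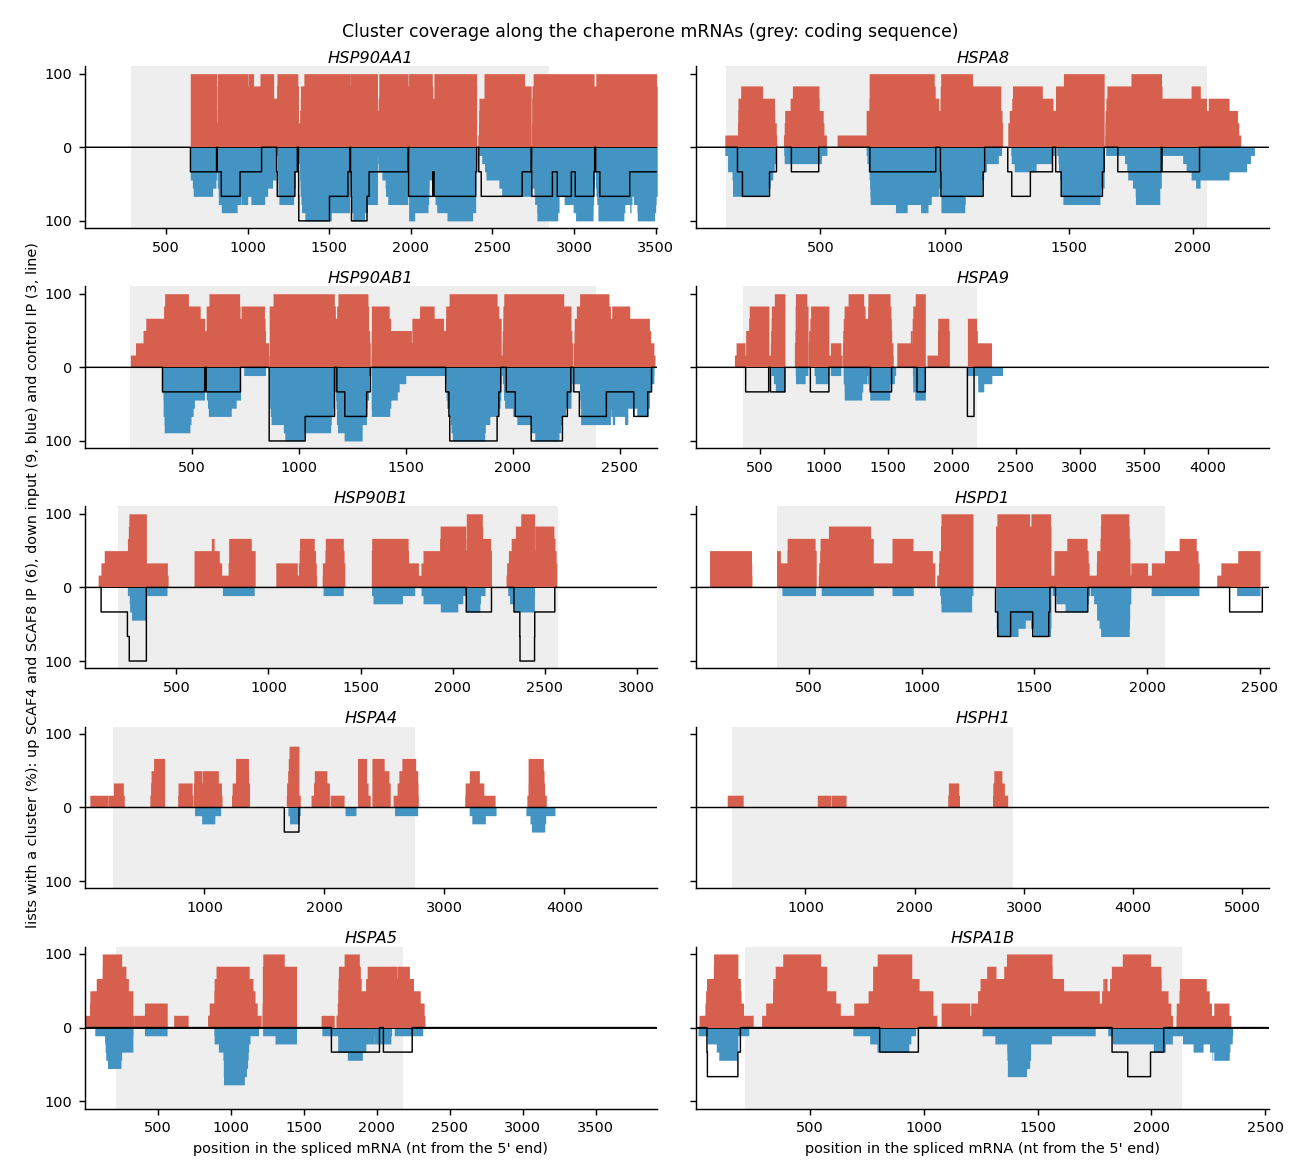
Percent of lists with a cluster at each position of the spliced mRNA (x axis, nt from the 5′ end), with the 6 SCAF4 and SCAF8 IP lists upward in red, the 9 inputs downward in blue and the 3 control IP lists as a downward line; the coding sequence is shaded. The IP and input profiles mirror each other in HSP90AA1, where 72.5% of the mRNA was in at least 5 inputs. In HSPA1B, HSPA4, HSPH1, HSP90B1 and HSPA9 at most 3.89% was.

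The ends of the mRNAs were covered unevenly. In HSPA5 no cluster of any SCAF4 or SCAF8 IP list lay beyond position 2330 of an mRNA of 3921 nt, of which the coding sequence ends at 2179. In HSPA9 the last covered position was 2309 in SCAF4 and SCAF8 IP and 2395 in the inputs, of 4479 nt, with the coding sequence ending at 2195. The isoforms used were the coding ones with the most exonic sequence, and the ends of HSPA5 and HSPA9 were thus without clusters in all lists. In HSP90AA1 the upstream exons of that isoform were also empty, with the first covered position at 649 in the IPs and the inputs, whereas the 3′ end was covered to its last base, 3510, in both. In HSPA4 coverage reached position 3849 in the IPs and 3921 in the inputs, well past the end of the coding sequence at 2758.

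Clusters on the chaperone mRNAs lay mostly in coding sequence. Pooled over the 10 genes, they lay nearer to the 5′ end in SCAF4 and SCAF8 IP than in the inputs. Of the 488 clusters of SCAF4 and SCAF8 IP, 394 lay in coding sequence, 35 in 3′ UTRs, 18 in 5′ UTRs, 34 in introns and 7 in HSP90AB1 outside the isoform used. Of the 347 input clusters, 274 lay in coding sequence, 51 in 3′ UTRs, 7 in 5′ UTRs and 10 in introns. The share in 3′ UTRs was 9.33%, 5.61% and 2.41% in SCAF4 IP, and 10.4%, 8.33% and 8.14% in SCAF8 IP. It was 13.5%, 16.7% and 8.57% in SCAF4 input, 17.8%, 21.6% and 18.6% in SCAF8 input and 6.67%, 8.33% and 18.2% in parental input. SCAF8 IP and its own input did not overlap, and SCAF4 IP overlapped its own in 1 list. The same shift was present over all protein-coding genes, with 9.85% to 18.9% in 3′ UTRs in SCAF4 and SCAF8 IP and 17.5% to 29.0% in the inputs.

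The mean position of exonic clusters, as a percent of the mRNA from the 5′ end, was 47.4, 41.6 and 42.3 in SCAF4 IP and 47.7, 45.6 and 43.8 in SCAF8 IP. It was 50.6, 53.3 and 47.7 in SCAF4 input, 53.6, 53.1 and 54.0 in SCAF8 input and 51.9, 54.1 and 53.3 in parental input. The highest IP list and the lowest input met at 47.7, and all others were apart. Control IP, at 49.5, 57.4 and 50.9, lay with the inputs. Over all protein-coding genes the means were 36.8 to 40.9 in SCAF4 and SCAF8 IP and 45.1 to 48.2 in the inputs. The values of the chaperone genes were thus higher in both kinds of list, and the gap between IP and input, −7.66 percent of the mRNA between the group means, had the direction of that over all genes. No test was made of these positions, since the genes were chosen with earlier results known. The means pool genes in a mix that differed between the kinds of list. HSP90AA1, covered from position 649 to 3510, held 97 of 347 input clusters and 66 of 488 IP clusters. HSPA9, covered only to 2395 of 4479 nt, held 25 and 66. Positions were not compared within single genes, and the part of this mix in the means and in the 3′ UTR shares was not tested.

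Introns held few of the clusters. The share in introns was 4.00%, 11.2% and 7.23% in SCAF4 IP, 7.79%, 5.00% and 4.65% in SCAF8 IP and 0% to 8.89% in the inputs. Over all protein-coding genes it was 22.9% to 33.1% in SCAF4 and SCAF8 IP and 24.8% to 47.7% in the inputs. The chaperone genes were thus below the background in each list, with control IP at 0% to 9.09% against 14.7% to 32.9%. HSPA9 held 15 of the 34 intronic IP clusters and HSPD1 held 7.

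Many IP clusters nevertheless ran across an exon-intron boundary, that is, they covered at least 5 nt on both sides of a 5′ or 3′ splice site. Such clusters hold exon and intron sequence in 1 run. Their share of the chaperone clusters was 37.3%, 54.2% and 47.0% in SCAF4 IP and 41.6%, 36.7% and 39.5% in SCAF8 IP. It was 19.2%, 16.7% and 20.0% in SCAF4 input, 13.3%, 13.7% and 11.6% in SCAF8 input and 20.0%, 8.33% and 9.09% in parental input. All 6 IP lists lay above all 9 inputs. Control IP gave 19.6%, 11.1% and 45.5%, the last from 5 of 11 clusters. Over all protein-coding genes the share was 20.7% to 29.1% in SCAF4 and SCAF8 IP, 7.76% to 11.0% in the inputs and 8.45% to 20.2% in control IP. The chaperone clusters of SCAF4 and SCAF8 IP had a median length of 166.5 to 202.0 nt and those of the inputs of 141.0 to 178.5 nt, and the part of cluster length and of list length in this result was not tested.

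**Figure D5:**
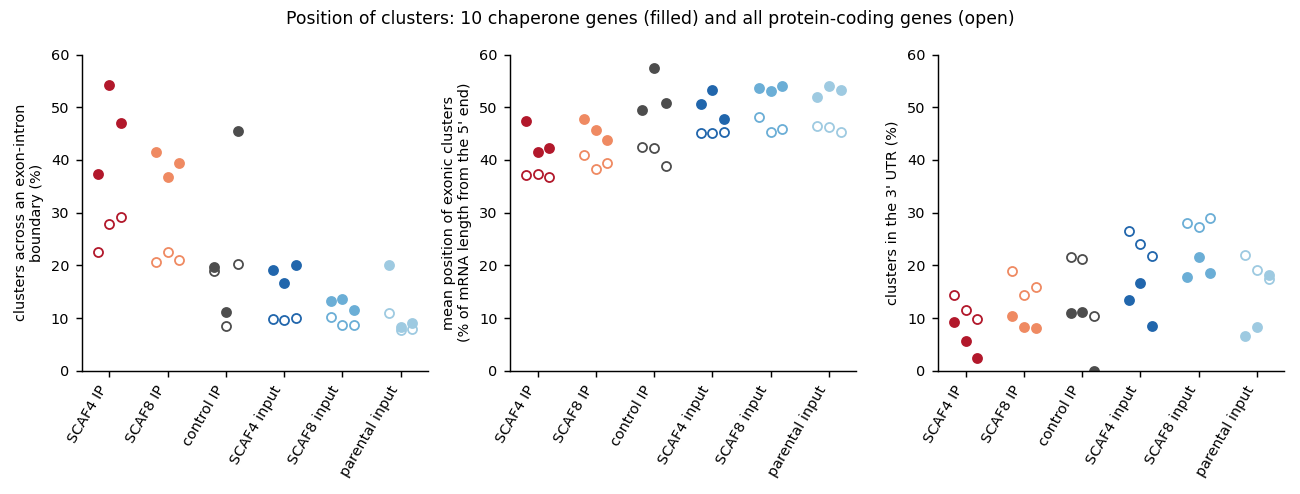
For each of the 18 lists, the percent of clusters across an exon-intron boundary (left), the mean position of exonic clusters in percent of the mRNA (middle) and the percent of clusters in 3′ UTRs (right), for the 10 chaperone genes (filled) and all protein-coding genes (open). On the left the 6 SCAF4 and SCAF8 IP lists sit at 36.7% to 54.2% for the chaperone genes, above the 8.33% to 20.0% of the inputs.

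The boundary clusters were found in most of the genes with introns. HSPA9 had the most, with 51 of its 66 SCAF4 and SCAF8 IP clusters against 12 of 25 input clusters. In HSPD1 they were 35 of 58 against 4 of 32, in HSP90AA1 38 of 66 against 21 of 97, in HSP90AB1 35 of 74 against 12 of 76, and in HSP90B1 28 of 59 against 3 of 20. HSPA4 had 12 of 46 against 1 of 11. HSPA8 had 9 of 45 and HSPA5 3 of 30, and neither had any in the inputs. HSP90AA1 thus had near-equal numbers of clusters in IP and input lists, but more of those in IP lists ran across a boundary. Of 234 boundaries in the 9 genes with introns, 98 were crossed in at least 1 SCAF4 or SCAF8 IP list, 28 in an input and 14 in a control IP list. In at least 4 of the 6 IP lists 29 were crossed, and 8 of them in no input or control IP list. The 8 were picked for their absence from the other, shorter lists. Boundaries were counted in these 9 genes only, so the counts cannot be set beside those over all genes.

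Of these 8 boundaries, 7 were 5′ or 3′ splice sites of HSP90AA1, HSP90AB1, HSPA9 and HSPD1, and 1 was in HSPA4. The 4 below are shown because they stand for introns of very different length, from 116 nt in HSP90AA1 to 3027 nt in HSPD1, with exon letters in capitals and intron letters in lower case, 30 nt each. The 5′ splice site of exon 6 of HSP90AA1 (chr14:102084651-102084710, minus strand) and that of exon 8 of HSPD1 (chr2:197493294-197493353, minus strand) were crossed in all 6 IP lists. The 5′ splice site of exon 4 of HSPA9 (chr5:138570930-138570989, minus strand) was crossed in 5 and the 3′ splice site of exon 17 of HSPA4 (chr5:133101729-133101788, plus strand) in 4.
HSP90AA1 exon 6, 5′ splice site: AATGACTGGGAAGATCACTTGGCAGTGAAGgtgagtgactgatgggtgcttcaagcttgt
HSPD1 exon 8, 5′ splice site: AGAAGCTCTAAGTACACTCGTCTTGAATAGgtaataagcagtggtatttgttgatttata
HSPA9 exon 4, 5′ splice site: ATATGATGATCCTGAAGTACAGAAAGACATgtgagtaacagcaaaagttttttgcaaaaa
HSPA4 exon 17, 3′ splice site: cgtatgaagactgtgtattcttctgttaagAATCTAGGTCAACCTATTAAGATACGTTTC

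The short motifs of the study were searched in the 100 nt around each cluster midpoint on the transcribed strand. CGG or CGA was present in 69.3% of the 488 SCAF4 and SCAF8 IP clusters of the chaperone genes, 73.5% of their input clusters and 75.0% of their control IP clusters. Over all clusters the shares were 67.0%, 57.1% and 68.6% in SCAF4 and SCAF8 IP, the inputs and control IP. Pooled, IP was thus above input over all clusters and below it on the chaperone mRNAs. By list the chaperone shares overlapped, with 72.0%, 65.4% and 72.3% in SCAF4 IP and 69.2%, 73.3% and 82.9% in its input. SCAF8 IP gave 63.6%, 75.0% and 69.8% against 66.7%, 68.6% and 69.8%, and parental input 71.1%, 95.8% and 81.8%. These differences, and the part of the mix of genes in the pooled shares, were not tested. Of all windows of 100 nt in the 10 spliced mRNAs, 52.4% held CGG or CGA, from 35.5% in HSPA9 to 94.4% in HSPA1B. The windows around midpoints were cut from the genome and can hold intron. Those of the spliced mRNAs weight every position alike, with or without clusters, so these shares are unlike measures. CAG with C or G on both sides was present in 28.7% of chaperone clusters of SCAF4 and SCAF8 IP, 25.9% of input clusters and 30.3% of all windows, and CTCC or CACC in 48.0%, 49.9% and 47.9%. Over all clusters these were 43.1% in SCAF4 and SCAF8 IP and 34.9% in the inputs, and 48.6% and 41.8%. The mean T content was 24.4% in the chaperone clusters of SCAF4 and SCAF8 IP and 25.4% in those of the inputs.

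Under steps modelled on those by which the study removes background, nearly all chaperone regions were lost. The steps were run here on the 10 genes only, so the loss cannot be set beside that over all genes. Overlapping SCAF4 IP clusters merged into 105 regions on the 10 genes, of which 81 had clusters of at least 2 of 3 replicates and 28 overlapped clusters of no more than 1 input. Removal of genes with at least 1 input region per 10 kb left 1, and removal of regions in control IP left that 1. For SCAF8 IP the numbers were 101, 67, 14, 0 and 0. The remaining region (chr13:31137366-31137504, minus strand) lay in the last coding exon of HSPH1, the gene without input clusters, and contains the HSPH1 sequence printed above. The density of input regions per 10 kb of the gene body with 2 kb added at both ends was 0 in HSPH1, 1.03 in HSPA4, just above the limit, and 1.59 to 10.2 in the others, with HSP90AB1 highest. The study states this limit in input clusters per 10 kb. The merging of input clusters into regions and the added 2 kb were choices made here for this step.

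Without the step on input density, 24 regions for SCAF4 and 12 for SCAF8 remained. HSPA4 and HSPD1 had 6 each for SCAF4 and 3 and 2 for SCAF8, and HSP90B1 had 5 and 2. HSP90AB1 had 3 for each protein and HSPA9 had 3 and 1, HSPA1B had 1 for SCAF8, and HSP90AA1, HSPA5 and HSPA8 had none for either. HSP90AA1, HSPA5 and HSPA8 thus lost all regions before that step. Most of the regions that remained lay in coding exons, among them HSPA4 at chr5:133070380-133070500, chr5:133088406-133088579 and chr5:133103845-133104017 for SCAF4, of which similar regions remained for SCAF8.

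Of 60 other chaperone and co-chaperone genes, 53 held a cluster and 39 could be tested. In SCAF4 IP against its input 2 were higher and 1 was lower, or 0 and 5 with voom weights, 28 and 0 unscaled, 6 and 3 without replicate 1 and none without replicate 2 or 3. Of all genes tested, 12.3% were higher and 1.54% lower, as given above. With voom weights 76 of all 6114 genes were higher and 618 lower, and unscaled 3940 were higher and 0 lower. Without replicate 1 there were 1687 higher and 392 lower. None of all genes was called without replicate 2, and 3 were higher without replicate 3. Both higher genes passed the filter of 10 clusters through SCAF4 and SCAF8 IP and had no cluster in SCAF4 input, so they are given by their numbers alone. STIP1, which links HSP70 to HSP90, held 4, 13 and 8 clusters in SCAF4 IP and 0 in all 3 SCAF4 inputs. UNC45A, a chaperone of myosin, held 3, 5 and 4 against 0 in all 3. CANX, a lectin chaperone of the endoplasmic reticulum, held 9, 20 and 8 against 11, 9 and 6, and its share was lower by a log2 difference of −1.56 ± 0.41 (SE, limma, adjusted p = 0.0139). The median log2 difference was 0.13 over the 39 genes and 0.31 over all genes tested. In SCAF8 IP against its input none of the 39 passed the test.

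Against control IP, 5 of the 39 were higher and 2 lower in SCAF4 IP, and 2 were higher and 1 lower in SCAF8 IP. Of all genes tested, 17.5% and 4.86% were so in SCAF4 IP, and 8.47% and 3.93% in SCAF8 IP. With voom weights none of the 39 was higher, and 6 and 7 were lower. Of all 6114 genes, 5 and 14 were higher in that fit, and 1299 and 1343 were lower. STIP1 and UNC45A were among those higher in SCAF4 IP, as was BAG6, a holdase for exposed membrane segments, with 2, 9 and 8 clusters. STIP1 was also among those higher in SCAF8 IP, with 2, 4 and 7. These 3 genes had no control IP cluster and most of their clusters in SCAF4 and SCAF8 IP, so the filter bears on their calls too. TRAP1, the HSP90 of mitochondria, held 12, 5 and 13 in SCAF8 IP against 2, 0 and 0 in control IP (limma, adjusted p = 0.0493). That call is close to the limit and rests on 2 control IP clusters, both in replicate 1. Against SCAF8 input the log2 difference of TRAP1 was 0.54 (limma, adjusted p = 0.606). CCT5, a subunit of the TRiC chaperonin, held 10, 13 and 14 clusters in SCAF8 IP and 8, 5 and 3 in control IP, and its share was lower (log2 difference −1.47 ± 0.42, SE, limma, adjusted p = 0.0294). It had the most clusters of the 60 genes, 187 over the 18 lists, followed by CANX with 163 and P4HB, a protein disulfide isomerase, with 115. The lower share of CCT5 thus went with a higher number of clusters in each SCAF8 IP list than in any control IP list, while the numbers of CANX in SCAF4 IP and its input overlapped.

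Among the protein-coding genes outside both lists whose shares followed the mean of the 9 tested chaperone genes most closely over the 18 lists were ATP5F1B (Pearson r = 0.812), TRIM28 (0.811), SRSF1 (0.803) and TSPYL1 (0.790), out of 2214 compared. The points share libraries and list length, and the correlation is a description. SRSF1, a splicing factor, held 10, 13 and 15 clusters in SCAF4 IP and 15, 12 and 13 in its input, and ATP5F1B, a subunit of the mitochondrial ATP synthase, held 9, 9 and 8 against 8, 6 and 6. Both had clusters in all 18 lists.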

How the data were processed

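PAR-CLIP was analysed in 18 lists from 36 libraries, with 6 groups of 3 replicates taken from the sample labels. The authors trimmed reads (Trim Galore, cutadapt), aligned them to GRCh38 with Bowtie2 2.2.9 without splitting at junctions and with 1 position reported per read, removed duplicates (Picard), and ran PARalyzer on the soluble and chromatin reads of a replicate together. Names and versions are those of the submitters' processing notes and the study's methods. The deposited lists give chromosome, start, end, strand and an unnamed score between 0.501 and 1, which served only to rank clusters within a list. They precede the filters on input and control IP and hold no reads, so a short list may miss clusters, and alignment to 1 position can move clusters between near-identical copies.

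The members and gene lists were chosen with earlier results of these data known. Clusters were counted by midpoint and strand in GENCODE 44 gene bodies. The share of the list was log2 of clusters per 10000 with a prior of 2 clusters scaled to list length, and was tested with limma 3.58.1 in R 4.3.3 (trend, two-sided, Benjamini-Hochberg over genes with at least 10 clusters, adjusted p below 0.05, all 18 lists in 1 fit), and the code was tested on simulated data. Positions used the coding isoform with the most exonic sequence. Intervals are exact binomial (95%). Named genes were the 10 members, from the fixed list of 60 chaperones up to 3 called with the smallest p per comparison and the 3 with the most clusters, the 5 genes most like the members (1 of them is not reported here), and SCAF4 and SCAF8. Of the coding stretches found per member by the most SCAF4 and SCAF8 IP lists minus other lists, the 5 longest are printed. The share of clusters across exon-intron boundaries was added after seeing the data. Values by list came from Python 3.11.15 (pandas 2.3.3, numpy 2.4.6, scipy 1.17.1) and figures from matplotlib 3.10.9. Each input is RNA of the extract of the IP with the same number, so the replicate number pairs them. Deviations from the group means correlated at 0.022 to 0.384 in the 9 such pairs over 6114 genes. Pairs of unequal number gave −0.288 to 0.167, so the ranges overlapped. The main fit did not use the pairing, which the replicate block tried as an alternative. Alternatives to list scaling, prior, filter, score, isoform and replicates were tried.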

Additional observations from a re-analysis of the deposited data

Results flagged for a closer look

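Clusters were also present on processed copies of the chaperone genes, which the comparisons did not use. HSPA9P1 (chr2:221961737-221963765, plus strand, GRCh38) held 8 clusters in SCAF4 and SCAF8 IP, in all 6 lists, with 1 cluster in 1 input and 0 in control IP. HSPD1P1 (chr5:21882585-21884310, plus strand) held 10 in 5 of these IP lists, with 5 clusters in the 3 SCAF4 inputs, 0 in the other inputs and 0 in control IP. HSPD1P4 (chr12:56511002-56512703, plus strand) held 4 in 3 of these IP lists, with 1 in an input and 0 in control IP. Reads that match a gene and its copy were placed at 1 position, and the part of such reads in these clusters was not tested.

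On the other strand of the 10 genes lay 9 clusters of SCAF4 and SCAF8 IP, 2 of the inputs and 0 of control IP. Of the 9, 5 lay in UQCC6 within the body of HSP90B1 and 4 in HSPE1-MOB4 within that of HSPD1. All 4 signals stand above control IP, whose lists are also the shortest, and the part of list length was not tested.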

How the results depend on the processing

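Of the 9 tested chaperone genes, 2 were called in SCAF4 IP against its input, 0 in SCAF8 IP against its input, 3 in SCAF4 IP against control IP and 2 in SCAF8 IP against control IP. Of all 6114 genes, 843, 128, 1369 and 758 were called. Without scaling to the list, 6, 1, 7 and 6 of the 9 were called, all higher, and 3940, 1573, 4737 and 3516 of all genes. The median over all genes rose from 0.31 to 1.06 on the log2 scale in the first of these comparisons. With the lower-scoring clusters of each list left out (below its median), 0, 0, 1 and 0 of the 9 were called. Of all 6029 genes tested there, 162, 10, 229 and 32 were called. In SCAF8 IP against control IP, voom weights gave 4 of the 9, all lower, and nucleotides covered gave 1, also lower. Of all 6114 genes, voom weights gave 14 higher and 1343 lower, and nucleotides covered 623 higher and 204 lower. With voom, 11.0% of all calls in SCAF4 IP against its input were higher, against 88.8%, and 0.383% against 78.3% in SCAF4 IP against control IP, where 3 chaperone genes were lower and 0 higher. The voom fit changed the log values as well as the weights, since it did not use the prior scaled to list length. The part of either was not tested. Leaving out 1 replicate gave 0 to 3, 0, 0 to 4 and 0 to 4 calls, 0 in SCAF4 IP against SCAF8 IP and 0 to 1 in control IP against parental input. Over all 6114 genes these fits gave 0 to 2079, 0 to 847, 0 to 2634 and 0 to 2081 calls, then 0 to 278 and 0 to 427. With the replicate block, the members called were 2, 0, 3 and 2, and 0 in the other comparisons, and 103 genes of all were called in control IP against parental input, against 36. In the first 4 comparisons the block gave 1036, 158, 1597 and 937 genes of all. The gap between IP and input in the mRNA covered, 21.0 percentage points, was 13.0 with the higher scores and 19.2 to 23.6 without 1 replicate. That in clusters across boundaries, 28.0, was 37.8 and 25.8 to 31.1. The gaps in introns, 3′ UTRs and relative position kept their direction under every alternative run. The 1 region left after the filters became 0 with all 3 replicates required, 7 with any 1, 36 without removal by input density and 1 to 3 without 1 replicate. The depth is unknown, so clusters missed in short lists cannot be told from RNA not bound.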
